A study of Mus musculus with 18 samples.

Results

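The genes described here are named for cilia and for parts of the axoneme, the microtubule core of the motile cilium, and were followed in frontal cortical RNA of APP/PS1 mice with and without farnesyltransferase in forebrain neurons. They were chosen by their symbols: every gene of the count table named Cfap, Dnah, Dnaic, Rsph, Drc or Tekt with a number, together with Foxj1, Ccdc39 and Ccdc40, which gave 70 of 55487 genes. Of the 70, 33 were Cfap, 16 Dnah, 8 Rsph, 5 Tekt, 3 Drc and 2 Dnaic genes. By the annotation 69 encode proteins and 1, Dnah2os, is an antisense RNA. Cfap46 was the reason to look at the family and was itself selected on its measured difference between knockout and APP/PS1 mice, so its values there are given as a description, without a test. The mice were 9 to 10 months old, with 6 in each genotype, 3 females and 3 males. APP/PS1 mice carried the transgenes of line 85Dbo, which a prion protein promoter drives, and WT mice carried none of them. APP/PS1/FTnKO mice carried the same transgenes and a Cre driven by the CamKIIα promoter, which restricts the deletion of the floxed FT β-subunit gene (Fntb) to forebrain neurons, so that FT remained in other cells. By the study's methods all 3 genotypes were littermates homozygous for the floxed FT allele, so that knockout and APP/PS1 mice differed by Cre, whereas the labels call the WT mice C57BL/6J. APP/PS1/FTnKO mice are also called knockout mice. Values are counts normalized to library size (CPM). Beside them a difference between groups is given as a log2 fold change with its standard error (SE) from edgeR's quasi-likelihood test, and as a false discovery rate (FDR), the p-value adjusted over all 17414 genes tested, with 0.05 as the threshold.

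Motile cilia beat by the sliding of microtubule doublets. Outer and inner arm dyneins (heavy chains Dnah, intermediate chains Dnaic) drive the sliding, while the radial spokes (Rsph), the nexin-dynein regulatory complex (Drc), the tektins (Tekt) inside the doublets and the central apparatus control or stabilise it. Ccdc39 and Ccdc40 form the ruler that sets the axonemal repeat, and Foxj1 is the transcription factor that switches on the motile cilium program. In the brain such cilia stand on ependymal cells and on the choroid plexus, whereas neurons and astrocytes carry a single primary cilium without a central pair. Cfap46 is a subunit of the C1d projection of the central apparatus, together with Cfap54, Cfap74 and Cfap221.

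The library totals were 15925432 to 21030935 counts per mouse. Fntb averaged 22.2 ± 8.60 CPM (SD, n = 5) in WT mice, 20.2 ± 8.06 (n = 6) in APP/PS1 mice and 11.8 ± 2.76 (n = 6) in knockout mice, with overlapping ranges. Prnp, part of whose sequence the transgenes hold, averaged 702 CPM in WT mice, 2118 in APP/PS1 mice and 2192 in knockout mice. WT mouse 19622 stood apart: the markers of cerebellum summed to 4126 CPM in it against 172 to 222 in the other 17 mice, those of choroid plexus to 2310 against 153 to 871, and those of cortical glutamatergic neurons to 469 against 1870 to 2982. It was left out of the fit and is described separately, and calls among the members that change when it is included are named. Of the 15 ependymal markers, 8 averaged more than 1 CPM. The sum of all 15 ran from 92.1 to 104 CPM in the 5 other WT mice, between 87.6 and 146 in APP/PS1 mice and between 87.8 and 129 in knockout mice. In mouse 19622 it was 150 CPM. In bulk RNA, fewer cells of a type and less RNA per cell cannot be told apart.

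The bases before the transcription start are shown for Cfap46 and Dnah1, which were both highest in knockout mice, and for Cfap43 and Cfap44, whose levels correlated with those of Foxj1 across mice. The sequences are the 250 bases before the start on the gene's own strand (5′ to 3′), from RefSeq on GRCm38.p6, and capitals mark a match to an RFX half-site (GTTGCC or, on the other strand, GGCAAC) or to a forkhead core (GTAAACA or TGTTTAC). RFX factors and Foxj1, a forkhead factor, are the known regulators of ciliary genes.
Cfap46 (chr7:139683816-139684065, minus strand): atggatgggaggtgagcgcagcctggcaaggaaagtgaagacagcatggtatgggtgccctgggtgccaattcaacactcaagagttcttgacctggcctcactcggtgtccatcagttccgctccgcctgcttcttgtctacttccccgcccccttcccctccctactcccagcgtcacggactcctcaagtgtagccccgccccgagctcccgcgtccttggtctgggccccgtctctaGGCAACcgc
Dnah1 (chr14:31323897-31324146, minus strand): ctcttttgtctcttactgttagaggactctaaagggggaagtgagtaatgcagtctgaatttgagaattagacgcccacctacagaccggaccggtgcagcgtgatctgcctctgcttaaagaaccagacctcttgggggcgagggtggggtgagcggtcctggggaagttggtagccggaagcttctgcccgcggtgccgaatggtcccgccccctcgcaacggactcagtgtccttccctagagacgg
Cfap43 (chr19:47837362-47837611, minus strand): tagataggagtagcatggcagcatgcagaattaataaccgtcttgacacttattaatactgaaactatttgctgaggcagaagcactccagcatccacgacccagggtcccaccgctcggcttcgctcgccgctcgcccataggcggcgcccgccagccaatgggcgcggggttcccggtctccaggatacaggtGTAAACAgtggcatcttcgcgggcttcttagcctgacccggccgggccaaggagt
Cfap44 (chr16:44394549-44394798, plus strand): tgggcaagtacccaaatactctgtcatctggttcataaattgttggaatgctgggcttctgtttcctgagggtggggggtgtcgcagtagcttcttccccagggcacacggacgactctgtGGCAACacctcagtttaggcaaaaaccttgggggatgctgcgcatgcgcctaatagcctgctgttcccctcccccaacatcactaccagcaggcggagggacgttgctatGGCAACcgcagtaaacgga
The window of Cfap46 held 1 RFX half-site, 9 to 4 bases before the start, that of Cfap44 held 2, and that of Cfap43 held 1 forkhead core, 55 to 49 bases before the start. This RefSeq start of Cfap43 lies inside the gene of the annotation used for exon lengths. There it runs from 47736857 to 47919287 on the minus strand, so its first annotated start is another. The window of Dnah1 held neither string. Of the 70 members, 57 had a promoter entry, and 17 of these (29.8%) held the RFX half-site, compared with 11.8% of all 27025 genes with an entry. The forkhead core was in the windows of 4 members (7.02%) and of 3.54% of all genes. No match to the one overlapped a match to the other in the members. A match is a string of letters in this window, not a measured binding site.

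The axonemal genes were weakly expressed in frontal cortex. Of the 70 members, 58 had enough counts to be tested in the 17 mice, and the 12 that did not averaged at most 0.47 CPM. Per kb of exon, the scale on which genes can be set against each other, the tested members had a median level of 0.734 CPM, compared with 4.45 for all tested genes with a known length, and 8 of them lay above that median. The highest were Cfap36, which binds the small GTPase Arl3, at 21.9 CPM per kb, Cfap298, a dynein arm assembly factor, at 11.9, and Cfap20, a protein of the doublet's inner junction that primary cilia use too, at 9.12. The dynein heavy chains were the lowest family: Dnah1, an inner arm chain, led them at 1.25 CPM per kb, and Dnah17 was last at 0.0308. Cfap46 stood at 2.27 CPM per kb, next to its C1d partner Cfap54 (2.27) and close to Cfap74 (2.84) and Foxj1 (2.12), while the fourth C1d subunit, Cfap221, was near the bottom at 0.103 and was not tested. Ccdc39 (3.81) was listed well above its ruler partner Ccdc40 (0.323). Exons of Ccdc39 and Ttc14 overlap on opposite strands, as do those of 27 members in all with another gene, and the strand setting of the counting is not known here. On the same strand, exons overlapped in 3 members: Cfap43 (with Gm22240 and Itprip), Cfap299 and Rsph10b.

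**Figure D1:**
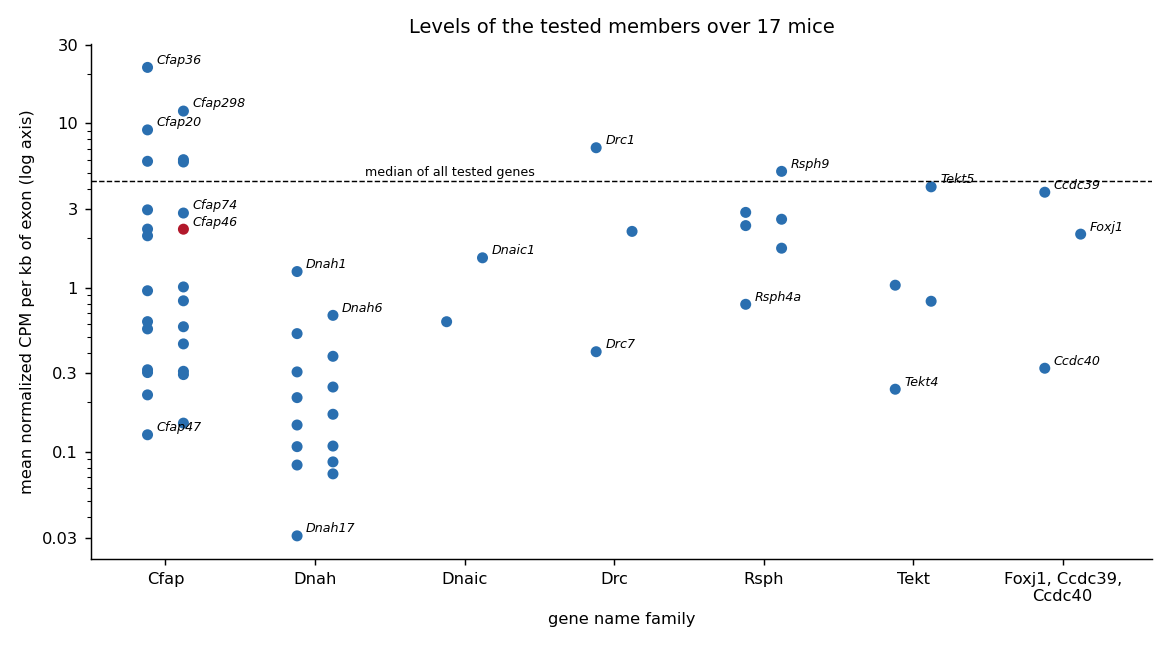
Mean level of each of the 58 tested members over 17 mice, as normalized CPM per kb of exon on a log axis, by gene name family; each point is a gene, Cfap46 is red and the dashed line is the median of all tested genes, 4.45. Most members lie below the line, and all dynein heavy chains do.

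Cfap46 (ENSMUSG00000049571, chromosome 7 from 139600951 to 139683817 on the minus strand, with 60 merged exons in GRCm38) was highest in the neuronal FT knockout mice. The 5 WT mice had 19.1, 18.1, 20.7, 16.1 and 15.8 CPM, from 306 to 340 counts. The APP/PS1 mice ran from 14.4 to 19.03 CPM with a median of 15.98, and the knockout mice from 24.5 to 34.6 CPM with a median of 27.2. Every knockout mouse thus lay above every APP/PS1 and WT mouse, and the WT and APP/PS1 mice overlapped. The log2 fold change was 0.78 ± 0.08 (SE) against APP/PS1, the comparison on which the gene was chosen, and 0.61 ± 0.08 against WT, which uses the same knockout mice; neither is offered as a test. Non-overlap in the first comparison was shared by 0.597% of all tested genes. Between APP/PS1 and WT mice, where the choice plays a part only through the shared APP/PS1 mice, the log2 fold change was -0.17 ± 0.08 with an FDR of 0.36 by edgeR. Leaving out any 1 mouse moved the 0.78 to between 0.73 and 0.81.

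**Figure D2:**
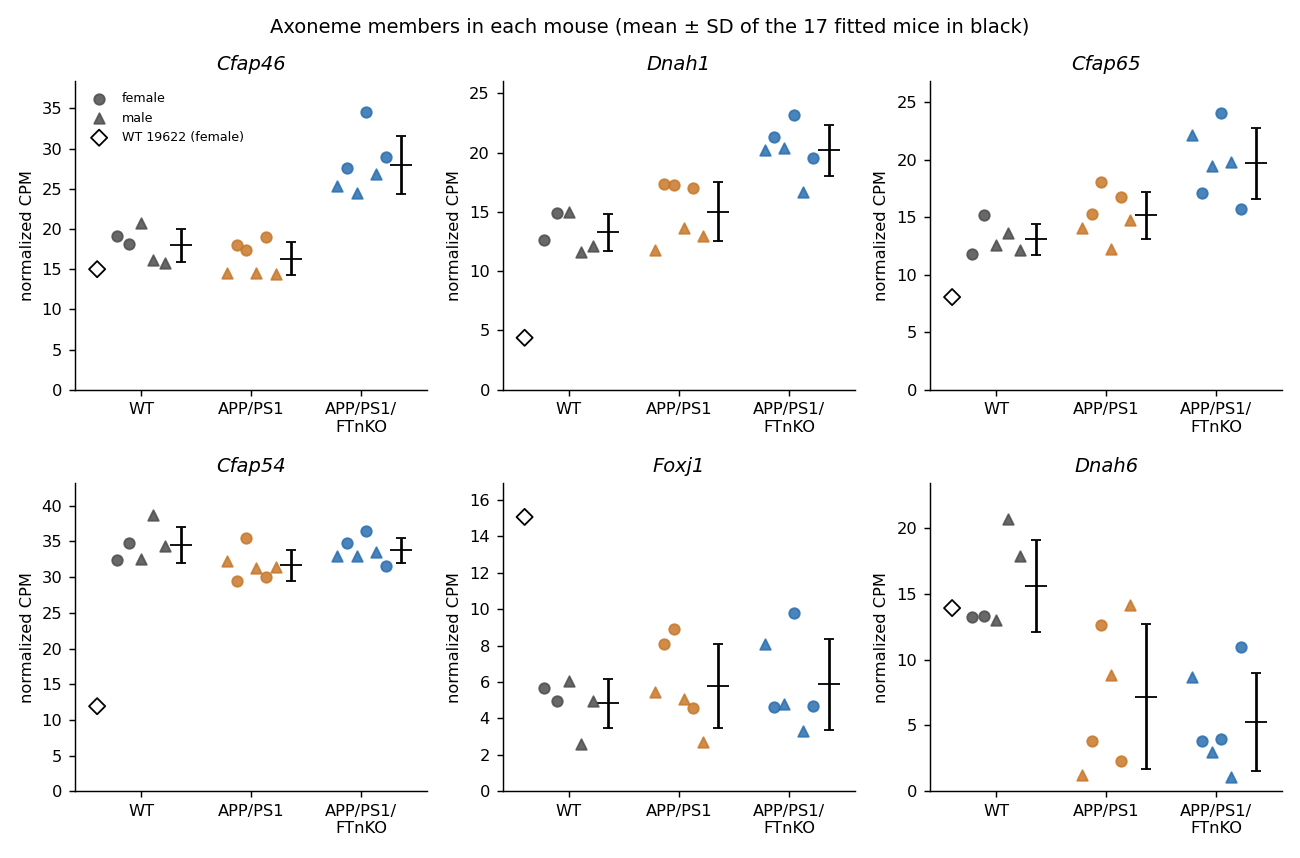
Normalized CPM of 6 members in each mouse, by genotype; circles are females, triangles males, the black dash and bar give the mean and SD of the group, and the open diamond is WT mouse 19622, which is in no mean. Cfap46 runs from 24.5 to 34.6 CPM in knockout mice and from 14.4 to 20.7 in the others, Dnah1 and Cfap65 are higher in knockout than in WT mice, Cfap54 and Foxj1 overlap throughout, and Dnah6 spreads widely in mice with the transgenes.

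Among the other dynein heavy chains and central apparatus genes, Dnah1 and Cfap65 rose in the knockout mice compared with WT mice. Dnah1 had 12.7, 14.9, 15, 11.6 and 12.2 CPM in the WT mice, 11.8 to 17.4 with a median of 15.3 in APP/PS1 mice and 16.6 to 23.2 with a median of 20.3 in knockout mice. The knockout mice lay above all WT mice, and their lowest lay below the highest APP/PS1 mice. Dnah1 was 0.58 ± 0.09 higher on the log2 scale in knockout than in WT mice (FDR 0.00279, edgeR). Against APP/PS1 mice the log2 fold change was 0.44 ± 0.09 (FDR 0.0411), a call that sat at the threshold. It was kept in 5 of 10 other analyses, with an FDR of 0.749 when mouse 19622 was included, 0.192 in mice with a RIN of at least 8, 0.0975 without the sex term, 0.0634 with only these genotypes fitted and 0.0531 with limma-voom. It was also lost on leaving out any of the 6 APP/PS1 mice, knockout mouse 16974, 18943, 18973 or 19394, or WT mouse 19053 or 19721, with an FDR of 0.0566 to 0.0974. The log2 fold change itself ran from 0.39 to 0.47 over all 10 other analyses and all omissions of a mouse. Including mouse 19622, which had 4.38 CPM, the difference from WT was 0.78 with an FDR of 0.0642.

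Cfap65, a central pair protein known for its part in the sperm flagellum, had 11.8, 15.2, 12.6, 13.6 and 12.2 CPM in WT mice. Its values ran from 12.2 to 18.03 CPM, with a median of 15.01, in APP/PS1 mice and from 15.7 to 24.1, with a median of 19.6, in knockout mice. It was 0.58 ± 0.11 higher on the log2 scale in knockout than in WT mice (FDR 0.0101), and this call was kept under every alternative and every mouse left out. Against APP/PS1 mice, with which the values overlapped, the log2 fold change was 0.38 ± 0.11 and did not pass (FDR 0.152). Exons of Cfap65 and of Dnah1 overlap those of Gm15841 and Gm35823 on the other strand.

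Over the 58 tested members, the differences were mostly small and positive. In knockout against APP/PS1 mice, 39 members were higher and 19 lower, with a median log2 fold change of 0.07, compared with 0.00 over all tested genes. Beside Cfap46, Dnah1 alone was called, where 0.327% of all tested genes were. In knockout against WT mice, 42 were higher and 16 lower, with a median of 0.18, compared with 0.01 over all genes. Beside Cfap46, Dnah1 and Cfap65 were called, where 3.87% of all genes were. Beside Cfap46, which was chosen on these knockout mice, Dnah1, Cfap65, Cfap44 and Cfap410 lay higher in every knockout than in every WT mouse, compared with 2.75% of all tested genes. Cfap410 was also higher in every APP/PS1 than in every WT mouse, and between knockout and APP/PS1 mice its log2 fold change was 0.00 ± 0.05. In APP/PS1 against WT mice, 38 members were higher and 20 lower, with a median of 0.08, and edgeR called 0 of them, where 1.5% of all genes were called. An unadjusted p under 0.05 was reached there by 5 members and by 2431 of all genes, and the smallest FDR was 0.194, for Cfap410 at 0.15 ± 0.05. DESeq2 and limma-voom also called 0 members between APP/PS1 and WT mice. The comparisons share groups of mice and are not independent of each other.

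**Figure D3:**
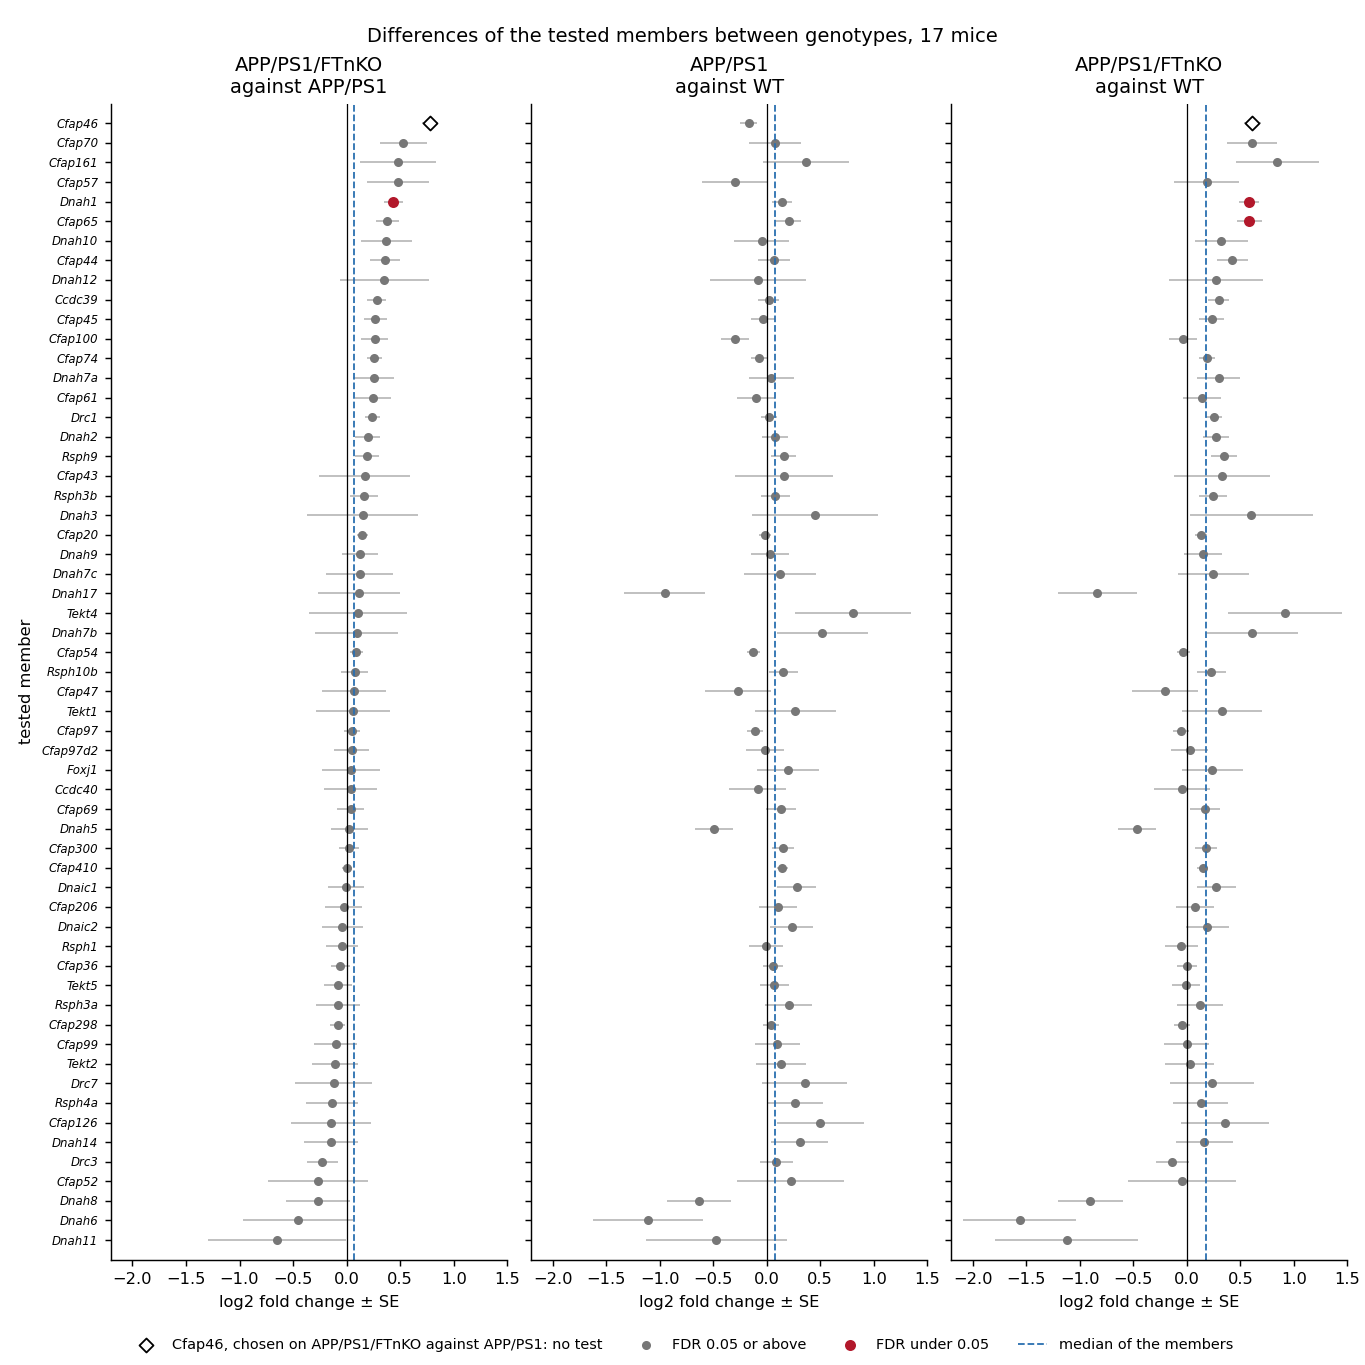
Log2 fold change ± SE of the 58 tested members in the 3 genotype comparisons, in the order of the first; red points have an FDR under 0.05, the dashed line is the median of the members (0.07, 0.08 and 0.18), and Cfap46 is drawn as an open diamond where no test applies. The calls are Dnah1 in the first panel and Dnah1 and Cfap65 in the third.

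By family, the Cfap genes had 19 of 25 and the Dnah genes 11 of 15 tested members higher in the knockout than in APP/PS1 mice, with medians of 0.09 and 0.12 on the log2 scale. The 6 radial spoke genes were divided, 3 higher and 3 lower, with a median of 0.02. The 4 tektins had a median of -0.01 and the 2 outer arm intermediate chains Dnaic1 and Dnaic2 one of -0.02. Of the 3 Drc genes only Drc1 was higher, at 0.24 ± 0.07 (FDR 0.166). Drc1, chosen for mention after its values were seen, had 19.03 to 23.6 CPM in knockout mice and 16.1 to 20.02 in APP/PS1 mice. The ruler gene Ccdc39 had 28.2 to 39.7 CPM in knockout and 23.1 to 31.2 in APP/PS1 mice, a log2 difference of 0.28 ± 0.09 that did not pass (FDR 0.22) but was called with RIN as a covariate. For Ccdc40 the difference was 0.04 ± 0.25, and for Foxj1, at 3.29 to 9.80 CPM in knockout and 2.70 to 8.92 in APP/PS1 mice, 0.04 ± 0.27 (FDR 0.972).

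The C1d partners of Cfap46 had smaller differences, which did not pass edgeR's test. Cfap74 had 27.8, 27.8, 28.1, 26.5 and 26.7 CPM in WT mice, 24.3 to 30 with a median of 25.2 in APP/PS1 mice and 27.5 to 36.1 with a median of 31.1 in knockout mice. Its log2 fold change between the last 2 groups was 0.26 ± 0.07 (FDR 0.132), and DESeq2 called it (FDR 0.0487). Cfap54 had 32.4, 34.7, 32.6, 38.7 and 34.4 CPM in WT mice, 29.4 to 35.5 in APP/PS1 mice and 31.5 to 36.5 in knockout mice, a log2 difference of 0.09 ± 0.06 (FDR 0.601). Cfap221 stayed under 0.66 CPM in every mouse. Of the 3 other tested genes of the C1d list, Cfap54, Cfap74 and Wdr93, only Cfap74 had an unadjusted p under 0.05 in this comparison (0.00173, edgeR).

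Beyond the members, the other genes of the cilium gave few calls. Of 12 tested genes of the rest of the central apparatus, 5 of them on the member list too, 9 were higher and 3 lower in the knockout than in APP/PS1 mice. Of these, edgeR and limma-voom called 0, DESeq2 called 2, Ccdc189 and Hydin, and 5 had an unadjusted p under 0.05. The smallest p-values there were those of Ccdc189, at 0.45 ± 0.10 (FDR 0.0738), and of Hydin, a large central pair protein, at 0.75 ± 0.19 (FDR 0.106). Ccdc189 was also 0.53 ± 0.11 higher than in WT mice (FDR 0.015). The lists of other dynein arm genes (7 of 14 higher, the members Dnaic1 and Dnaic2 among the 14), of dynein arm assembly (6 of 11), of radial spoke and nexin link neighbours (13 of 19), of ciliogenesis transcription and centriole amplification (10 of 18, Foxj1 among them), of intraflagellar transport (19 of 28) and of the BBSome and the neuronal primary cilium (13 of 19) held 0 calls in this comparison by edgeR, DESeq2 or limma-voom, with medians from 0.00 to 0.06 and from 0 to 4 genes a list at an unadjusted p under 0.05. In knockout against WT mice, 10 of the 14 dynein arm genes were higher (median 0.19), 10 of 11 for assembly (0.12), 15 of 19 for spoke and nexin link (0.20) and 14 of 18 for ciliogenesis (0.19). Intraflagellar transport had 16 of 28 higher (0.01) and the BBSome list 9 of 19 (-0.003). DESeq2 called 1 assembly and 2 ciliogenesis genes there. By edgeR, Cluap1, an intraflagellar transport subunit, was 0.27 ± 0.06 higher than in WT mice (FDR 0.0124), and Rfx7, a member of the RFX transcription factor family, was 0.18 ± 0.05 lower (log2 fold change -0.18, FDR 0.0483). Of 11 tested ependymal markers, 4 were higher and 7 lower in the knockout than in APP/PS1 mice, with a median of -0.04, and 0 had an unadjusted p under 0.05. Against WT mice, where 42 of the 58 members were higher, 10 of these 11 markers were higher and 1 lower in knockout mice, with a median of 0.28, 0 called by edgeR or limma-voom, 1 by DESeq2 and 2 at an unadjusted p under 0.05. In APP/PS1 against WT mice 9 were higher and 2 lower, with a median of 0.26, 2 of them at an unadjusted p under 0.05 and 0 called by the 3 tools. Of 11 choroid plexus markers, 2 were higher and 9 lower in the knockout than in APP/PS1 mice, with a median of -0.36, and 3 had an unadjusted p under 0.05 without a call by any of the 3 tools. Their sum was highest in APP/PS1 mouse 19554, at 871 CPM, against at most 355 in the other 16 fitted mice. Of 12 microglial markers, which include genes of the response to plaques, all 12 were lower in the knockout than in APP/PS1 mice, with a median of -0.28, 5 at an unadjusted p under 0.05 and 0 called by the 3 tools, while between WT and APP/PS1 mice 8 were called, all higher with the transgenes. In knockout against WT mice 11 of the 12 were higher and 6 were called. Of 10 astrocyte markers, 3 were higher and 7 lower with a median of -0.03 in knockout against APP/PS1 mice. Against WT mice 8 of the 10 were higher, with a median of 0.15, and Gfap, the filament protein of reactive astrocytes, was called (log2 fold change 2.53 ± 0.35, FDR 0.00098). In APP/PS1 against WT mice all 10 were higher, with a median of 0.165, and Gfap was called there too (2.78 ± 0.35, FDR 0.000323). Of 10 cerebellar markers 4 were higher and 6 lower in knockout than in APP/PS1 mice, with a median of -0.06. Of 12 markers of cortical glutamatergic neurons, 0 were higher in knockout than in WT mice, with a median of -0.13, and Slc17a7 was called lower (log2 fold change -0.46 ± 0.12, FDR 0.0396). In APP/PS1 against WT mice 1 of the 12 was higher and 11 were lower, with a median of -0.08. In knockout against APP/PS1 mice 5 were higher and 7 lower, with a median of -0.04, and Slc17a7 was not called (-0.38 ± 0.11, FDR 0.177). The part of these cell types in the members' differences was not tested.

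Several members varied widely among mice of a genotype. The coefficient of variation within genotypes had a median of 22.1% over the tested members; it was above 50% in 8 of them and below 10% in 8. It was smallest for Cfap410 (4.9%) and Cfap20 (5.49%), which had the most counts of the steady members, and was 13.0% for Cfap46 and 13.1% for Dnah1. It was largest for Dnah11, an outer arm chain, at 94.1%, where counting alone would give 13.4%: its values ran from 0.50 to 9.23 CPM in WT mice, 0.588 to 9.44 in APP/PS1 mice and 0.574 to 4.40 in knockout mice. Dnah6, an inner arm chain, also spread widely. It had 13.2, 13.3, 13.0, 20.7 and 17.8 CPM in WT mice, 1.24 to 14.2 with a median of 6.34 in APP/PS1 mice and 1.11 to 10.9 with a median of 3.92 in knockout mice. Every knockout mouse lay below every WT mouse, as for 2.85% of all tested genes, and the APP/PS1 mice overlapped both. The log2 difference was -1.56 ± 0.53 against WT (FDR 0.0989) and, for APP/PS1 against WT, -1.11 ± 0.51 (FDR 0.346). Dnah6 passed the threshold against WT with limma-voom, with no filter on low counts, with only these genotypes fitted and without knockout mouse 19722. Dnah6 and Dnah11 were chosen for mention after their values were seen.

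Cfap46 and Dnah1 were 2 of 12 members that were higher in every female than in every male APP/PS1 mouse, compared with 6.65% of all tested genes, and sex gave no call among the members. Cfap46 had 17.4, 18 and 19.03 CPM in the 3 female and 14.4, 14.5 and 14.6 in the 3 male APP/PS1 mice, and Dnah1 had 17.01, 17.3 and 17.4 in the females and 11.8, 12.9 and 13.7 in the males. In knockout mice the females had 27.6 to 34.6 CPM of Cfap46 and the males 24.5 to 26.8, and in WT mice the sexes overlapped. Over the 17 mice the female minus male log2 difference was 0.23 ± 0.06 for Cfap46 (FDR 0.533) and 0.24 ± 0.07 for Dnah1 (FDR 0.575). Of the 58 members, 38 were higher in females and 20 in males and edgeR called 0, where 0.0689% of all tested genes were called. An unadjusted p under 0.05 was reached by 6 members and by 1166 of all 17414 genes. The difference between knockout and APP/PS1 mice did not differ detectably between the sexes: 0 members were called, where 0% of all tested genes were. An unadjusted p under 0.05 was reached by 2 members (Dnah12 and Dnaic1) and by 578 of all genes. This difference was more positive in females for 16 members and in males for 42, with a median of -0.19 on the log2 scale, compared with 0.00 over all genes. DESeq2 and limma-voom called 0 members in both.

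With the sexes pooled, 4 members were correlated with Foxj1 across mice. Deviations of log2 CPM from the genotype mean were correlated with those of Foxj1 over the 17 mice, with a permutation test within genotypes of 100000 resamples and the FDR taken over 17413 genes. Of 57 members, 4 had a positive r with an FDR under 0.05, where 1.38% of all tested genes did. Cfap43 had r = 0.867 (permutation p = 2e-05) and rho = 0.863 (permutation p = 0.00011), with an FDR of 0.0124. Dnah3 had r = 0.847 (permutation p = 1e-05, the smallest these resamples can give) and rho = 0.831 (permutation p = 0.00018), also with an FDR of 0.0124. Cfap44, which with Cfap43 tethers an inner arm dynein to the doublet, had r = 0.825 and rho = 0.809 (permutation p = 0.00045 and 0.00094, FDR 0.0299). Dnah12 had r = 0.76 and rho = 0.748 (permutation p = 0.00085 and 0.00241, FDR 0.0387). Without mice 19394 and 19718, the farthest from the median in Foxj1, r was 0.818, 0.918, 0.766 and 0.727 in the same order. The number of calls rested on single mice: it was 0 without WT mouse 19718, 1 without APP/PS1 mouse 19744 and 2 without knockout mouse 16974, 19394 or 19720, and 6 without APP/PS1 mouse 16975. With mouse 19622 included 6 members were called, of which 3 were among the 4: Cfap44 was lost, and Cfap126, Cfap161 and Drc7 were gained. Foxj1 and the 4 members were all higher in females, by 0.41 ± 0.23 for Foxj1, 0.74 ± 0.36 for Cfap43, 0.96 ± 0.45 for Dnah3, 0.21 ± 0.12 for Cfap44 and 0.90 ± 0.36 for Dnah12 on the log2 scale, without a call. Taking deviations from the mean of genotype and sex and permuting within these, a choice made after seeing the data, r was 0.862, 0.817, 0.789 and 0.732 in the same order. Neither these members nor any other tested gene then passed the threshold (0 called, smallest FDR of any gene 0.106), with 15552 distinct permutations and 10 members at a permutation p under 0.05. With so few permutations, a call over 17413 genes needs many genes near the smallest possible p, so the lack of calls says little.

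These genes were weak, at 1.04 to 1.06 CPM for Dnah12, Dnah3 and Cfap43 and 6.98 for Cfap44, and Dnah3 ranged from 0 to 45 counts. Cfap46 had r = 0.542 and rho = 0.473 to Foxj1 (permutation p = 0.0389 and 0.0769, FDR 0.249), and r fell to 0.318 without mice 19394 and 19718. Dnah1 had r = 0.65 (FDR 0.124), Cfap65 0.372 (FDR 0.506), Cfap54 -0.00194 (FDR 0.998) and Cfap74 -0.0453 (FDR 0.958). The lowest r were those of Cfap36 (-0.528), Cfap69 (-0.414), which is needed in olfactory cilia and sperm, and Cfap410 (-0.368), with FDRs of 0.253, 0.407 and 0.534. These 3 were measured at 23.5 CPM or more, and 1 of them, Cfap36, was also among the 3 highest members per kb.

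**Figure D4:**
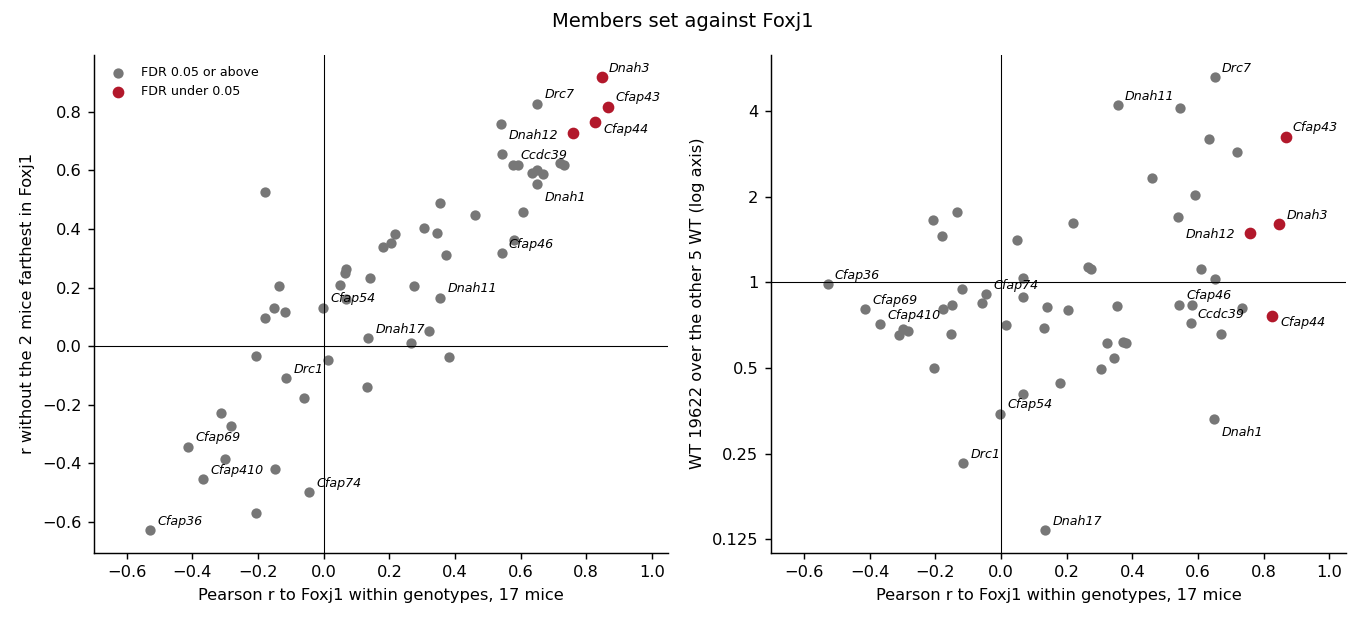
Pearson r to Foxj1 within genotypes over 17 mice for 57 members, against r without the 2 mice farthest in Foxj1 (left) and against the level in WT mouse 19622 relative to the mean of the other 5 WT mice on a log axis (right); red points have an FDR under 0.05. Cfap43, Dnah3, Cfap44 and Dnah12 keep an r of 0.727 or more on the left, whereas Cfap46 moves from 0.542 to 0.318.

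Over the 17 mice, the genes whose log2 CPM ran most like that of Cfap46 were Mroh7 (Pearson r = 0.902), the lysine methyltransferase Smyd5 (0.889) and Kif5b (0.877), a kinesin heavy chain; these are descriptions over mice that share genotypes. Of these, Mroh7 kept the highest r within genotypes, at 0.788, against 0.534 for Smyd5 and 0.422 for Kif5b. Kif5b was 0.68 ± 0.10, Mroh7 0.41 ± 0.08 and Smyd5 0.21 ± 0.04 higher on the log2 scale in knockout than in APP/PS1 mice (FDR 0.0067, 0.0371 and 0.0411). Likeness to Cfap46 picked these genes, so their differences are not separate evidence. Among the members, Dnah1 was most like Cfap46, with r = 0.856 over the 17 mice and 0.755 within genotypes, 10th among all tested genes; Cfap74 had 0.789 and Cfap70 0.752. Foxj1 had r = 0.296, rank 3689.

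Within 250 kb of Cfap46 on chromosome 7, 5 of 9 annotated genes were tested, and edgeR and limma-voom called 0 of them between knockout and APP/PS1 mice. Kndc1, 211 kb away, had a log2 fold change of 0.20 ± 0.04 (FDR 0.0572) and was called by DESeq2 (FDR 0.00256). Adgra1 had -0.04 ± 0.09, Inpp5a -0.04 ± 0.05, Nkx6-2 0.07 ± 0.22 and the pseudogene Gm4459, which lies between exons of Cfap46, -0.11 ± 0.15. Kndc1 alone of the 5 had an unadjusted p under 0.05 (0.000233).

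WT mouse 19622 had members on both sides of the other mice, as it had genes in general. On a scaling over all 18 mice, 10 of the 58 tested members were above, 19 below and 29 within the range of the other 17 mice, or 17.2% above and 32.8% below, compared with 28.4% and 26.8% of all tested genes. Foxj1 had 15.1 CPM in this mouse against 2.61 to 6.01 in the other 5 WT mice, and Dnah11 had 17.5, which was 4.19 times their mean. Among the tested members, the highest ratios to the mean of the other WT mice beside it were those of Drc7 (5.26), Dnah7b (4.095) and Cfap43 (3.26). Drc1 (0.232 times), Dnah1 (0.331), Cfap54 (0.345) and Dnah17 (0.135) were far below. Apart from Foxj1, Cfap43, Cfap46, Dnah1 and Cfap54, the genes of this paragraph were chosen after their values were seen. Cfap46, at 15 CPM or 0.835 times the mean of the other WT mice, was within the range of the other 17 mice.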

How the data were processed

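Stranded mRNA libraries were made from the frontal cortex of 18 mice. The authors used Trimmomatic 0.33 for trimming, HISAT2 2.1.0 for alignment to GRCm38 and featureCounts for counting, and deposited unnormalized counts per gene. Which featureCounts version, strand and multi-mapping settings and annotation they used is not stated in the sources used here, so that close paralogs (Dnah7a, Dnah7b and Dnah7c; Rsph3a and Rsph3b) may share reads. Groups, sex and RNA integrity number (RIN, 7.6 to 8.8) were taken from the labels. RIN was 8.5 to 8.8 in WT mice (median 8.7), 7.7 to 8.7 in APP/PS1 mice (8.2) and 7.6 to 8.7 in knockout mice (8.6). Gene positions and exon lengths came from GENCODE M21, which covered 99.5% of genes.

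Counts were tested with edgeR 4.0.16 in R 4.3.3 (quasi-likelihood F test, TMM, filterByExpr at its minimum count of 10, Benjamini-Hochberg adjustment over all genes tested), with sex and genotype as terms, the 3 genotypes in a single fit and WT mouse 19622 left out, as the study's methods leave out a WT outlier. The SE is the size of the log2 fold change divided by the square root of F. CPM are TMM-scaled over the 17 mice, and for mouse 19622 over 18. The relation to Foxj1 used log2 CPM with a prior count of 2, and its p-values were adjusted over all genes and not, as first planned, over the members. The fit was repeated with RLE scaling, without a filter or with a minimum count of 30, without the sex term, with RIN as a covariate, in mice whose RIN reached 8, with only the genotypes compared, with all 18 mice, with limma-voom (limma 3.58.1), with DESeq2 1.42.0 and with each mouse left out. The relation to Foxj1 was repeated within genotype and sex, an alternative added after seeing the data. The scripts were tested on simulated data. With 15925432 to 21030935 counts per library, counting alone gives an error of 5.07% for Cfap46 and of 22.7% for Cfap43 per mouse.

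Members, gene lists and tests were chosen with earlier results of these data known. Genes named are Cfap46, Foxj1, Ccdc39, Ccdc40, members called, the 3 with the highest level per kb, the 3 highest and 3 lowest in r to Foxj1, the C1d subunits, genes within 250 kb of Cfap46, the 3 genes most like it and the called and 2 leading genes of the lists; other members were named after their values were seen.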

Additional observations from a re-analysis of the deposited data

Results flagged for a closer look

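Among 51 groups of mice (17 named members in 3 genotypes, all 18 mice on a common scaling), 9 held a mouse far from the rest of its group by Dixon's test; chance gives about 1 in 20 groups. WT mouse 19622 accounted for 5 of them: Foxj1 at 15.1 CPM against 2.61 to 6.01 in the other WT mice, Dnah1 at 4.38 against 11.7 to 14.9, Cfap20 at 27.3 against 38.1 to 41.2, Cfap410 at 25.6 against 35.2 to 36.5 and Cfap54 at 11.9 against 32.3 to 38.9. Cfap36 stood high in WT mouse 19718, at 74.8 CPM against 52.7 to 58.5 in the other WT mice, mouse 19622 included, and in APP/PS1 mouse 19744, at 75.8 against 56.3 to 63.1. Cfap410 stood high in APP/PS1 mouse 19723, at 44.2 against 37.7 to 40.1, and in APP/PS1/FTnKO mouse 19720, at 43.9 against 38.2 to 40. Mice 19718 and 19744 also had the lowest Foxj1 of their genotypes, 2.599 and 2.70 CPM. No such mouse was found for Cfap46 in any genotype.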

How the results depend on the processing

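The 3 log2 fold changes of Cfap46 kept their direction under all 10 alternatives and all 17 omissions of a mouse. For the comparisons with knockout mice this is a description, since the gene was chosen for its high level in these mice. Members called in knockout (APP/PS1/FTnKO) against APP/PS1 mice fell from 2 to 1 (beside Cfap46, which was chosen on this comparison, from 1 to 0) with all 18 mice, with limma-voom, without the sex term, in mice with a RIN of at least 8 and with only the genotypes compared, were 3 with DESeq2 (adding Cfap74) and with RIN as a covariate (Ccdc39), and were 1 to 2 with a mouse left out. Against WT mice they, Cfap46 included, rose from 3 to 6 with DESeq2 (adding Ccdc39, Dnah8 and Drc1), to 5 without a filter (Dnah6, Dnah8), to 5 with only the genotypes compared (Dnah6, Drc1), to 4 with limma-voom (Dnah6) and to 4 with a minimum count of 30 (Drc1), fell to 2 with all 18 mice (without Dnah1) and were 3 to 4 with a mouse left out. Cfap46 is in each of these counts and was chosen on the same knockout mice, so its place in them is not a test. The calls over all genes in that comparison, 674, moved too: they were 1321 with DESeq2, 971 without a filter, 859 with only the genotypes compared, 656 with limma-voom, 687 with a minimum count of 30, 388 with RIN as a covariate, 368 in mice with a RIN of at least 8, 261 with all 18 mice and 206 (without WT mouse 19053) to 987 (without knockout mouse 18973) with a mouse left out. Between APP/PS1 and WT mice, with 0 members called throughout, they were 261, but 468 with DESeq2, 452 without a filter, 120 in mice with a RIN of at least 8, 84 with RIN as a covariate and 124 to 465 with a mouse left out. Members related to Foxj1 numbered 0 to 6 with a mouse left out and 6 with all 18 mice (3 of the 4, without Cfap44), and 0 within genotype and sex, an alternative chosen after seeing the data. In that alternative the few distinct permutations limit calls. Over all genes, calls between knockout and APP/PS1 mice were 57, but 250 with DESeq2, 261 with RIN as a covariate, 104 without a filter, 14 in mice with a RIN of at least 8, 5 with only the genotypes compared, 2 with all 18 mice and 10 to 81 with a mouse left out. The cause was not tested. Counts under about 20 per mouse limit Dnah3, Dnah12, Cfap43 and weaker members.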
